A study of Xenopus laevis with 18 samples.

Results

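The amount of each maternal RNA in whole Xenopus laevis oocytes was compared with its amount in eggs by adding up the cytosol, endoplasmic reticulum (ER) and pellet fractions of the same stage and replicate number. The deposited attomolar table held 51026 transcripts, and each of them was given 3 oocyte totals and 3 egg totals from the 18 fraction libraries, which are all the libraries of the series. Of these, 19278 transcripts (37.8%) had a total of at least 0.1 attomolar in at least 3 of the 6 totals and were tested, and they held 99.45 to 99.62% of all attomolar in every total. Oocytes were stage VI oocytes freed of follicle cells and kept in culture medium, and eggs were oocytes of that kind matured in the same medium with 2 µM progesterone, all at 18 °C. Each library came from 4 cells, and 5 spike-in RNAs were added to each fraction before extraction. The study calls the samples biological replicates, but the frogs and cultures they came from are not given in the sources used here. The p-values therefore reflect variation among these samples only, some or all of which may be technical.

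A full-grown frog oocyte lives largely on RNA stored during its growth, and progesterone triggers its passage through meiosis to an arrested, fertilisable egg. During that passage the nuclear envelope breaks down, some stored mRNAs gain poly(A) tails and are translated, and others lose their tails and are later degraded. Part of the store is tied to places: RNAs of the vegetal cortex and germ plasm sit on cytoskeleton and organelle-rich material, and mRNAs of secreted and membrane proteins are held on the ER. A change seen in 1 fraction can therefore be a change in amount or a move between fractions, and the sum over the 3 fractions separates them. Attomolar values are molar concentrations, so levels of different transcripts can be set side by side. In bulk samples such as these, fewer cells carrying an RNA and less RNA per cell cannot be told apart. All changes below are relative, because the 6 totals each sum to 70656.7 attomolar over all transcripts.

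Library depth ranged from 23095791 to 37834030 estimated counts, and the 3 libraries behind a total summed to 88725114 to 96735612. Egg replicate 1 stood apart: it had the lowest of the 3 egg totals for 84.3% of the tested transcripts, and its pellet held 21.2% of its RNA against 11.7% and 12.4% in egg replicates 2 and 3. The oocyte pellets held 17.6%, 9.31% and 11.7%. The 20 most abundant transcripts made up 22.6% of egg replicate 1 and 15.7% and 17.3% of the other 2 eggs, against 18.5 to 22.6% of the oocytes. A single ER-bound transcript model named ccdc50.L (gene47265) took 12.3% of egg replicate 1, 7.18% and 7.65% of the other eggs and 8.17 to 12.6% of the oocytes. Markers of the oocyte itself (29 transcripts, 28 tested) summed to 197 to 214 attomolar in oocytes and 218 to 239 in eggs. The list of follicle cell markers was low, with 50 of 63 transcripts under the testing limit and sums of 11.8 to 13.4 and 12.8 to 14.4 attomolar. Its steroid synthesis genes held 0.0153% of all attomolar in oocytes, against 0.0179% for the whole list. Its granulosa and theca genes held 0.00098%. Whether the steroid synthesis RNAs came from follicle cells or from the oocyte was not tested. Blood, immune and liver markers summed to 1.84 to 2.62 and 1.75 to 2.46 attomolar. Of the haemoglobin genes, both hba1 models were at 0 in every total. Others were detected at low levels, such as hbg1.L at 0.000492 to 0.00569 and hbg2.S at up to 0.0107 attomolar.

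For most transcripts the total changed little while its place changed a lot. The scaling fixes the sum of the totals but not that of each fraction. The median transcript was 1.10-fold higher in eggs (log2 difference 0.14, quartiles -0.01 and 0.27), and values below are to be read against that shift. In 14610 of the 19278 transcripts (75.8%) the 95% confidence interval of the total lay within 1.5-fold either way. By limma with Benjamini-Hochberg adjustment, 4957 totals (25.7%) were higher and 1702 (8.83%) lower in eggs at an adjusted p under 0.05, but only 570 and 394 of these by 1.5-fold, 117 and 95 by 2-fold, and 17 and 8 by 4-fold. The 3 egg totals did not overlap the 3 oocyte totals for 8951 transcripts (46.4%). The balance between the directions depends on the scaling: 74.4% of the calls were higher with equal sums, 47.8% (3120 higher, 3411 lower) when each total was centred on its median transcript, and 26.5% (624 and 1730) with transcript abundance as TPM, a length-corrected share of each library, divided by the summed spike-ins. The spike-in scaling rests largely on 1 RNA, egfp, which made up 88.4 to 93.8% of the spike-in TPM of a library. The higher calls numbered 8095 without egg replicate 1, 3113 without egg replicate 2, 2793 without egg replicate 3, and 2807 and 2769 without oocyte replicates 2 and 3.

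The fractions moved much further than the totals, whose sums are fixed. The summed ER was 26343 to 33100 attomolar in oocytes and 19851 to 20576 in eggs. The summed cytosol was 29308 to 33974 and 35355 to 42533 attomolar. Share calls of single transcripts therefore include a shift common to the whole fraction. The cytosol share rose in 77% of transcripts and fell in 1.71%, with the median share going from 52.71% of the total in oocytes to 68.31% in eggs. The ER share fell in 92.3% and rose in 0.322%, with a median of 33.36% in oocytes and 18.67% in eggs. The pellet share, at a median of 12.5% and 12.06%, rose in 1.65% and fell in 1.85%. In attomolar values the cytosol was called higher for 20.3% of transcripts and lower for 1.47%, the ER higher for 0.659% and lower for 37.7%, and the pellet higher for 2.97% and lower for 2.17%. A total that was held within 1.5-fold while at least 1 fraction share changed by 10 percentage points or more was found for 12727 transcripts (66%). A held total is not an unchanged one, since 4133 of the 14610 held totals were also called higher or lower. Totals that fell with a lower mean in all 3 fractions numbered 265 (1.37%), and totals that rose with a higher mean in all 3 numbered 132 (0.685%). The mean ER value was lower in eggs for 18700 of the 19278 transcripts, so the cytosol and pellet decide most of the first count, and in 20 and 23 of the 2 groups each fraction was called on its own. Without oocyte replicate 1 the 265 became 173, and without any other single replicate number it lay between 207 and 332.

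**Figure D1:**
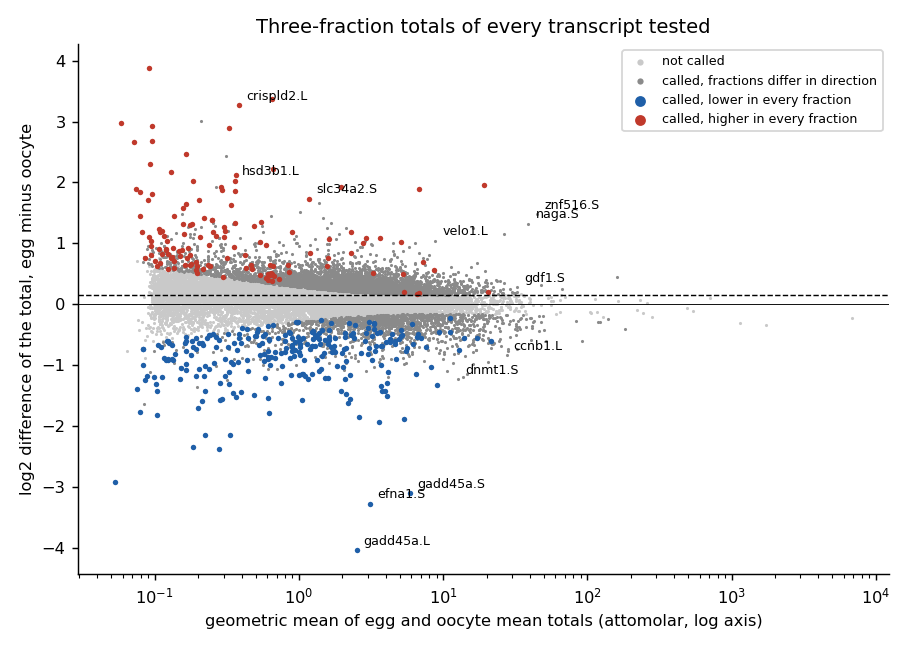
Log2 difference of the total, egg minus oocyte (vertical axis), against the geometric mean of the stage means in attomolar (horizontal log axis) for each of the 19278 transcripts tested, with calls that share a direction in all 3 fractions in blue and red. The dashed line is the median of 0.14, gadd45a.L lies lowest at -4.04, and most red points lie under 1 attomolar.

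The RNAs whose measured totals fell in the cell as a whole were led by both copies of gadd45a, a stress-inducible growth arrest gene, and by efna1.S. The gadd45a.L transcript (gene2743) had totals of 9.96, 10.6 and 10.1 attomolar in oocytes and 0.540, 0.667 and 0.638 in eggs. All 3 eggs lay far below all oocytes, a 16.4-fold difference (log2 difference -4.04 ± 0.08 SE, n = 3 and 3, adjusted p = 1.5e-78 by limma). Its homeolog gadd45a.S (gene39030) fell from 17.2, 18.2 and 16.3 to 1.95, 1.93 and 2.09 attomolar, an 8.62-fold difference. The fall of gadd45a.S was seen in every compartment, with log2 differences of -2.85, -4.05 and -2.62 for cytosol, ER and pellet. In both homeologs no egg value in any fraction reached the lowest oocyte value of that fraction. The Eph receptor ligand efna1.S (gene43718) had totals of 9.80, 9.69 and 9.61 attomolar in oocytes and 0.966, 0.947 and 1.06 in eggs (log2 difference -3.28 ± 0.08 SE, adjusted p = 1.7e-72). Its log2 differences were -3.27, -3.69 and -2.64 in cytosol, ER and pellet.

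Below these 3, the largest falls among transcripts of at least 1 attomolar with a gene symbol covered membrane, lipid and signalling genes. All had a lower mean in each of the 3 fractions. The pellet difference was not called on its own for anks3.L (log2 difference -0.38) and rnd3.S (-0.86). The endothelial lipase gene lipg.L (gene6331) went from 10.7, 10.1 and 10.2 to 2.65, 2.79 and 2.93 attomolar, a 3.70-fold fall with no overlap. The kinase gene pim1.L (gene15729) went from 5.01, 4.88 and 5.01 to 1.26, 1.41 and 1.42 attomolar, and txnip.L (gene261), whose product inhibits thioredoxin, from 3.89, 4.08 and 3.61 to 1.14, 1.17 and 1.44. The transmembrane gene tmem52.S fell by 1.94 on the log2 scale, anks3.L by 1.55, c1orf43.L by 1.47, rnd3.S by 1.43, ier2.L by 1.42 and blcap.L by 1.35. Each of these 12 transcripts lay lower in all 3 eggs than in all 3 oocytes, which was part of the rule that chose them. In all, 78 of the 95 transcripts that fell by 2-fold or more were lower in every fraction, with a median log2 difference of -1.30 and median levels of 1.07 attomolar in oocytes and 0.412 in eggs. The totals of 76 of the 78 were still called lower without egg replicate 1, 68 with a robust fit without trend and 65 without a filter. These refits reuse the totals that chose the 78 and are no separate check. Cytosol and ER alone are none either, because lower means in both were part of the choice. On estimated counts summed over the same libraries, edgeR called 67 of 75 of them lower.

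**Figure D2:**
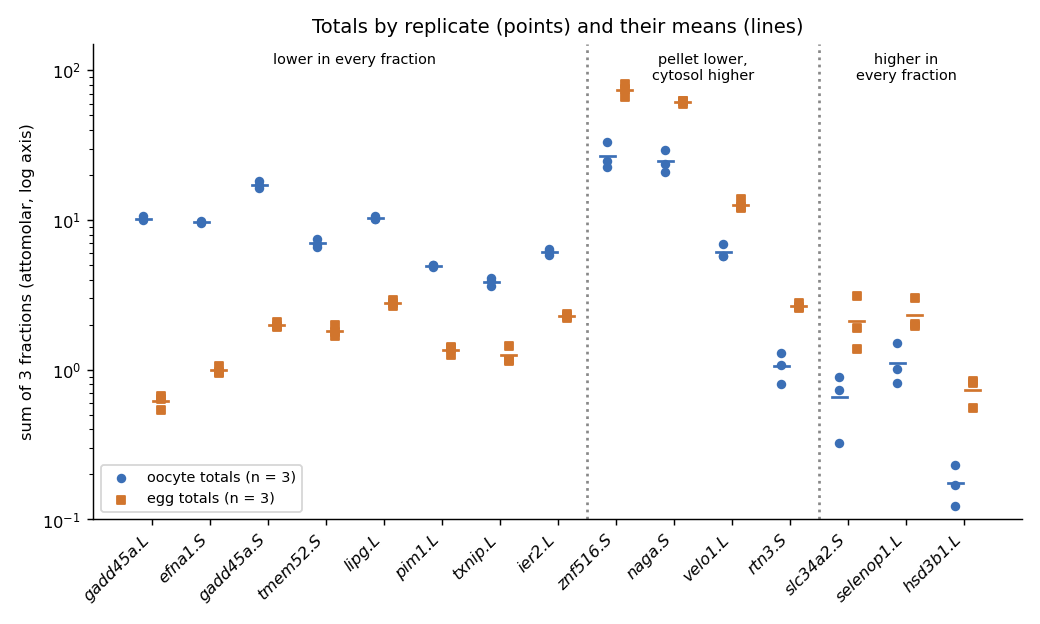
Totals in attomolar (log axis) of 15 transcripts in the 3 oocytes (blue circles) and 3 eggs (orange squares), with lines at the group means. Transcripts are grouped by the direction of the mean in each fraction, whether or not that fraction was called. No egg total overlaps an oocyte total, from gadd45a.L at 9.96 to 10.6 against 0.540 to 0.667 attomolar to hsd3b1.L at 0.124 to 0.232 against 0.557 to 0.837. For all but hsd3b1.L this was part of the rule that chose them.

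Immediate early and stress genes, which cells switch on within minutes of a stimulus, were lower on balance, with more of the falls among transcription factors. Of 99 transcripts on the list 78 were tested, 26 fell and 7 rose (background 8.83% and 25.7%), and the list's median was -0.09 against 0.14 for all transcripts. Of the 26 that fell, 14 were lower in every fraction. Among the transcription factors of the list 17 of 36 fell and 1 rose, with a median of -0.23. Among its signalling or stress effectors 9 of 42 fell and 6 rose, with a median of 0.06. The AP-1 subunits jun.L, jun.S and fos.L fell by 1.79, 1.58 and 1.21 on the log2 scale, the nuclear receptor nr4a1.L by 1.23 and the helix-loop-helix inhibitor id3.S by 2.91. The jun, fos and rgs2 transcripts were named after their values were seen. The id3.S transcript was rare, at 0.183, 0.184 and 0.177 attomolar in oocytes and 0.0174, 0.0183 and 0.0111 in eggs. It met the testing limit through its oocyte totals alone, and its egg totals lie near the 0.01 added before taking logs. The nr4a1.L totals were 1.71, 1.75 and 1.81 against 0.667, 0.805 and 0.771 attomolar, again with no overlap, and the regulator of G-protein signalling rgs2.L fell by 1.498. The 7 that rose included both gadd45g homeologs, relatives of gadd45a that went the other way: gadd45g.L was at 0.186, 0.265 and 0.216 attomolar in oocytes and 0.824, 0.489 and 0.461 in eggs. Together the list held 0.409% ± 0.0138 (SD) of all attomolar in oocytes and 0.343% ± 0.0133 in eggs (n = 3 each). The exact two-sided permutation test gave p = 0.1, the smallest that 3 against 3 allows. Relative to the median of all transcripts, the list's median was -0.236 here, -0.137 with edgeR on summed counts and between -0.254 and -0.212 under the other scalings compared.

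A second group of RNAs was lower in total and higher in the pellet, and several of the genes named in it act on chromosomes, the spindle and the meiotic cell cycle. Among totals that fell by any amount, 1259 of 1702 had a higher mean in the egg pellet, where 8890 of all 19278 had a lower one. The median pellet share of the 1259 went from 10.5% to 23.1%, and a rise of that share follows from how they were chosen. The maintenance DNA methyltransferase dnmt1.S (gene4753) had totals of 19.5, 19.2 and 19.2 attomolar in oocytes and 9.06, 7.21 and 8.55 in eggs (log2 difference -1.23 ± 0.07 SE, adjusted p = 3.5e-35). In the ER it went from 6.42, 6.50 and 7.54 to 0.479, 0.866 and 1.02 attomolar and in the cytosol from 10.4, 11.3 and 9.89 to 3.82, 3.58 and 4.76, while in the pellet it went from 2.76, 1.47 and 1.76 to 4.76, 2.76 and 2.78. The egg pellet values overlap the oocyte ones at 2.76 attomolar, and those of the other 2 fractions do not overlap. Its pellet share was 14.1%, 7.65% and 9.18% in oocytes and 52.5%, 38.3% and 32.5% in eggs, the highest of which is egg replicate 1. The dnmt1.L homeolog fell by 1.14 on the log2 scale in the same manner. The spindle factor hmmr.L (gene1532) went from 15.4, 16.2 and 14.8 to 7.51, 6.97 and 7.13 attomolar, and its log2 difference was 1.61 in the pellet against -1.56 in the cytosol. The inner centromere gene incenp.S went from 16.5, 17.6 and 15.1 to 8.64, 8.13 and 8.22 attomolar.

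Of 26 tested cyclins and cyclin partners 15 fell and 4 rose, and of 36 kinases 13 rose and 6 fell. Of all transcripts 25.7% rose and 8.83% fell. Cyclin B1, the partner of the maturation kinase Cdk1, went from 38.4, 35.5 and 36.1 to 21.3, 18.0 and 22.6 attomolar for ccnb1.L, with ccnb1.S lower by 0.76 on the log2 scale. Of the anaphase-promoting complex and its inhibitors 11 of 29 fell and 5 rose. Among them fbxo43.S, the Emi2 inhibitor that holds the egg in metaphase arrest, went from 13.8, 13.4 and 12.8 to 7.504, 7.502 and 7.765 attomolar. The checkpoint kinase chek1.S rose from 4.67, 4.14 and 4.28 to 6.34, 6.92 and 7.01 attomolar, although its log2 difference on summed counts was -0.01 with edgeR. Over the whole meiotic list of 112 tested transcripts 28 rose and 34 fell, and 87 were moved with the total held, as were 66% of all transcripts. With spike-in TPM 2 were higher and 26 lower, and with edgeR 3 and 14. Of 68 kinetochore and spindle transcripts 12 rose and 21 fell (0 and 21 with spike-in TPM, 2 and 13 with edgeR), with cenpi.L and tubg1.S among the risen. The meiotic list held 1.46% ± 0.053 (SD) of the attomolar in oocytes and 1.24% ± 0.0491 in eggs (exact permutation p = 0.1, two-sided). Replication genes were split, with 23 of 64 higher, such as pole.L and mcm3.L at log2 differences of 0.68 and 0.67, and 15 lower, against 15 and 20 when centred, 3 and 12 with spike-in TPM and 3 and 12 with edgeR.

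A smaller set had totals that were lower mainly in the cytosol. The lysosomal protease genes ctsb.L (gene2902) and ctsv.L (gene13520) fell by 0.96 and 0.85 on the log2 scale. For ctsb.L the totals were 29.4, 28.5 and 28.2 attomolar in oocytes and 15.579, 13.804 and 15.005 in eggs, without overlap. In the cytosol its log2 difference was -2.67, while those in the ER and pellet were -0.11 and 0.25. Its cytosol share of 57.9%, 63.8% and 52.9% in oocytes became 15.7%, 19.1% and 18.2% in eggs, where the median transcript's cytosol share rose. The ctsv.L cytosol values went from 9.24, 10.2 and 8.26 to 1.021, 0.9752 and 1.098 attomolar, and in the ER from 6.951, 6.942 and 8.149 to 4.647, 5.595 and 6.342. The plasma membrane calcium pump atp2b1.L and the ER stress kinase eif2ak3.S had the same order of fractions, with cytosol log2 differences of -1.63 and -1.86 and pellet differences of 1.57 and 1.23. The adhesion gene epcam.L, picked after its values were seen, fell from a mean of 14.3 to 5.68 attomolar, with log2 differences of -2.52, -1.23 and -0.21 for cytosol, ER and pellet.

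RNAs higher in every fraction were mostly rare. Of the 117 transcripts that rose by 2-fold or more, 64 had a higher mean in all 3 fractions. Their median means were 0.130 attomolar in oocytes and 0.388 in eggs, and only 11 of the 64 had a mean total of 1 attomolar or more. A transcript under 0.1 attomolar in every oocyte total could be tested only through its egg totals. How many of the 64 entered in that way was not counted. The sodium-phosphate cotransporter slc34a2.S (gene4762) went from 0.898, 0.323 and 0.738 to 3.11, 1.38 and 1.90 attomolar (log2 difference 1.73 ± 0.15 SE, adjusted p = 4.3e-19). The selenoprotein P gene selenop1.L (gene43678) went from 0.819, 1.499 and 1.01 to 3.00, 1.96 and 2.01 attomolar. Its ER log2 difference of 0.32 was not called on its own, and its ER values overlap between the stages. For slc34a2.S and selenop1.L, egg replicate 1 had the highest egg total. The totals of the stages did not overlap, which the rule that chose them required. Others of this kind, chosen after their values were seen, were crispld2.L at a log2 difference of 3.27, the collagenase mmp1.S at 2.98, the Ras-related rasd1.L (gene19294) at 2.90, the matrix protein thbs2.L at 2.22, the tight junction gene cldn5.L at 2.13 and the kinase pdk4.L at 2.02.

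Egg replicate 1, with its larger pellet, moves with this group. It was the highest of the 3 eggs for 48 of the 64 transcripts (75%), against 3.46% of all tested. The median pellet share of the 64 was 53.7% in oocytes and 57.7% in eggs, but some lay well below it, such as slc43a2.L at 15.42% and selenop1.L at 36.4% in oocytes. Without egg replicate 1 the totals of 61 of the 64 were still called higher, with a median log2 difference of 1.37. A robust fit without trend called 45 of the 64 higher, and the fit without a filter 36. On summed counts edgeR called 48 of 62 higher. All of these fits reuse the libraries that chose the 64 and are no separate check. Follicle cell markers include hsd3b1.L (gene16325), an enzyme of progesterone synthesis, which went from 0.232, 0.124 and 0.171 to 0.837, 0.818 and 0.557 attomolar. Of the 13 follicle markers tested 4 were called higher and 1 lower, and with spike-in TPM 1 of 15 was higher and 4 lower. Steroid synthesis genes made up 8 of the 13, with 3 of the higher calls and the 1 lower. Members of the list ranged from cyp17a1.L, at 3.53, 3.1 and 3.4 attomolar in oocytes and 2.67, 2.65 and 2.92 in eggs, through star.L at 0.0531 to 0.110 and foxl2.S at most at 0.0143, to dcn.S and lum.S, which were at 0 in every total. The part of egg replicate 1 and of follicle cells in the rise of the 64 transcripts was not tested.

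The other large group of gains left the pellet. Of the 117 transcripts that rose by 2-fold or more, 50 were higher in the cytosol and lower in the pellet. Their median pellet share went from 63.9% in oocytes to 11% in eggs, and a fall of that share follows from how the 50 were chosen. The zinc finger gene znf516.S (gene34535) had totals of 33.4, 24.9 and 22.5 attomolar in oocytes and 75, 81.2 and 66.5 in eggs (log2 difference 1.48 ± 0.08 SE, adjusted p = 1e-34). Its pellet went from 29.5, 17.3 and 19.2 to 24.2, 12.1 and 9.47 attomolar, and its cytosol from 1.80, 1.31 and 1.23 to 37.4, 50.6 and 42.1. The cytosol gained more than the pellet lost, and the groups overlap in the pellet only. The lysosomal glycosidase gene naga.S (gene15550) went from 29.5, 21.0 and 23.8 to 59.2, 62.4 and 62.8 attomolar, with 25.2, 15.5 and 19.4 of it in the oocyte pellet and 33.9, 39.3 and 40.7 in the egg cytosol. Reticulon rtn3.S had totals of 1.30, 0.807 and 1.08 attomolar in oocytes and 2.59, 2.77 and 2.62 in eggs. Both stages were clearly separated for each of these 3, which was part of the rule that chose them.

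Several of the named gains were in the vegetal classes deposited with the data, which are credited there to Sindelka et al. The Xenopus vegetal RNA velo1.L (gene6175) went from 6.96, 5.74 and 5.72 to 11.97, 13.74 and 12.23 attomolar, and the proprotein convertase pcsk6.L (gene48978) from 2.45, 1.65 and 1.90 to 3.72, 4.30 and 4.22. The homeobox gene otx1.L, the vinculin gene vcl.S, the receptor adipor2.S and cnppd1.L had log2 differences of 1.00, 1.01, 1.16 and 1.07, and ston1.S, which has no class, had 1.11. In these classes along the animal-vegetal axis, 109 of 132 tested vegetal transcripts rose and 3 fell, with a median log2 difference of 0.51. Of the extremely vegetal ones 18 of 26 rose and 1 fell, with a median of 0.66. Animal transcripts rose in 2988 and fell in 1071 of 10556 cases (28.3% and 10.1%, near the 25.7% and 8.83% of all, median 0.13). Extremely animal ones rose in 59 and fell in 49 of 277 (median 0.03). The vegetal class held 0.479% ± 0.0459 (SD) of the attomolar in oocytes and 0.657% ± 0.0254 in eggs, and the extremely vegetal class 0.0907% ± 0.0165 and 0.158% ± 0.00341 (exact two-sided permutation p = 0.1 for each, the smallest possible, n = 3 and 3). Transcripts in the class named other rose in 89 of 133 cases, and those with no class in 1694 of 8154.

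Totals of RNAs with more of their oocyte content in the pellet had higher log2 differences. The median log2 difference of the total was 0.10 for transcripts with up to 5% of the oocyte total in the pellet, 0.15 at 10 to 20%, 0.29 at 30 to 40%, 0.66 at 40 to 60% and 0.73 above 60%. Across the transcripts this is a Pearson correlation of 0.268 and a Spearman correlation of 0.219, given as a description because both measures come from the same libraries. Summed estimated counts weight each library by its depth and not by the RNA its fraction held. On those counts edgeR, which also differs in filter, normalisation and model, called 5 of the 48 pellet-to-cytosol transcripts higher, with a median log2 difference of 0.11. For the vegetal and extremely vegetal classes the edgeR medians were -0.04 and -0.29, with 25 of 134 and 13 of 26 called lower, so their direction flips. With TPM divided by the spike-ins the medians were 0.29 and 0.39, and with cytosol and ER alone 0.99 and 1.82, where 115 of 132 and 26 of 26 were called higher.

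**Figure D3:**
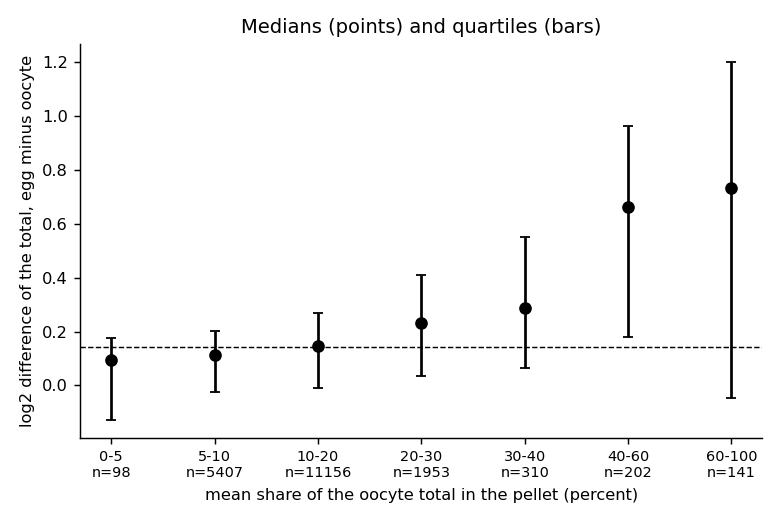
Median log2 difference of the total, egg minus oocyte (points) with quartiles (bars), for transcripts binned by the mean share of their oocyte total in the pellet (percent), with the number in each bin under the axis. The dashed line is the median of all tested, 0.14, and the 2 bins above 40% have medians of 0.66 and 0.73.

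Several of the best known vegetal RNAs left the pellet while their totals stayed within 1.5-fold. The 4 transcript models of gdf1.S, known in Xenopus as the vegetal growth factor Vg1, share sequence, so counts could be split among them, and they are described together. The model gene47490 had totals of 33.6, 26.7 and 28.3 attomolar in oocytes and 38.9, 33.8 and 34.4 in eggs, a log2 difference of 0.28 ± 0.07 SE. Its pellet share was 80.3%, 76.2% and 77.0% in oocytes and 45.4%, 23.9% and 23.2% in eggs, its ER share rose from 13.37% to 31.68% and its cytosol share from 8.824% to 37.47%. The other 3 models had egg pellet shares of 26.19% to 29.55%. All 4 totals were called higher (adjusted p of at most 0.0011 by limma) and lay within 1.5-fold, and on summed counts all 4 had negative log2 differences, from -0.35 to -0.29 with edgeR. The ER gain is against the general direction, since the ER share rose in 0.322% of all transcripts.

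The ligand wnt11b.L, whose RNA sits in the vegetal cortex, had attomolar totals of 6.98, 4.91 and 5.45 against 5.81, 6.39 and 6.30, but a log2 difference of -0.65 on summed counts with edgeR, while its pellet share went from 83.4%, 74.3% and 78.3% to 37.7%, 19.3% and 18.2%. The germ plasm RNAs dazl.L and nanos1.L, which code for germ cell RNA-binding proteins, kept more in the pellet. For dazl.L the totals were 3.89, 2.88 and 3.11 against 3.40, 2.90 and 2.86 attomolar, and the pellet share went from 87.4%, 80.2% and 85.9% to 61.8%, 30.5% and 36.6%. For nanos1.L the totals were 4.49, 2.86 and 3.55 against 3.91, 3.18 and 3.34 attomolar, and the pellet share went from 85.9%, 81.3% and 83.1% to 67.7%, 43.6% and 42.5%. In each of these 3 the totals of the stages overlap and the pellet shares do not, with egg replicate 1 the highest egg. The maternal T-box factor gene vegt.S had a cytosol share of 28.91% in oocytes and 57.24% in eggs, with a total log2 difference of 0.13 (adjusted p = 0.11), and for vegt.L the total difference was -0.15 (adjusted p = 0.068). On the vegetal and germ plasm list as a whole 27 of 43 tested transcripts rose and 7 fell, with a median of 0.28, but on summed counts edgeR called 1 higher and 19 lower, with a median of -0.14. Both homeologs of ssx2ip, placed on the germ plasm list, fell, by 0.72 and 0.55 on the log2 scale.

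Other RNAs with a held total crossed between fractions in other directions. The telomerase RNA terc.L (gene37862), a noncoding RNA, had totals of 7.46, 8.09 and 8.09 against 7.21, 6.54 and 7.14 attomolar. Its pellet share was 94.8%, 92.8% and 91.5% in oocytes and 54.5%, 32.7% and 43.7% in eggs, and the cytosol took up the rest. The mitotic kinase aurka.S (gene7723) went from 17.5, 16.7 and 17.1 to 13.5, 12.8 and 14.1 attomolar, while its ER share went from 62.5%, 67.4% and 71.0% to 13.1%, 20.9% and 21.3%. The RNA polymerase II large subunit polr2a.L had totals of 1.072, 0.994 and 1.195 against 0.996, 1.00 and 0.993 attomolar, with ER shares of 72.7%, 86.7% and 81.2% in oocytes and 30.2%, 34.8% and 29.0% in eggs. The exonuclease exd2.L, the microtubule protein map4.S, the splicing regulator esrp1.S, the transcription factor pou2f1.S and mettl9.L likewise went from the ER to the cytosol. The cytosol share of exd2.L rose from 8.449% to 59.31% and that of map4.S from 22.25% to 75.01%. Each of these 7 had an oocyte ER share above the median of 33.36%, which the rule that chose them by large share changes favoured.

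**Figure D4:**
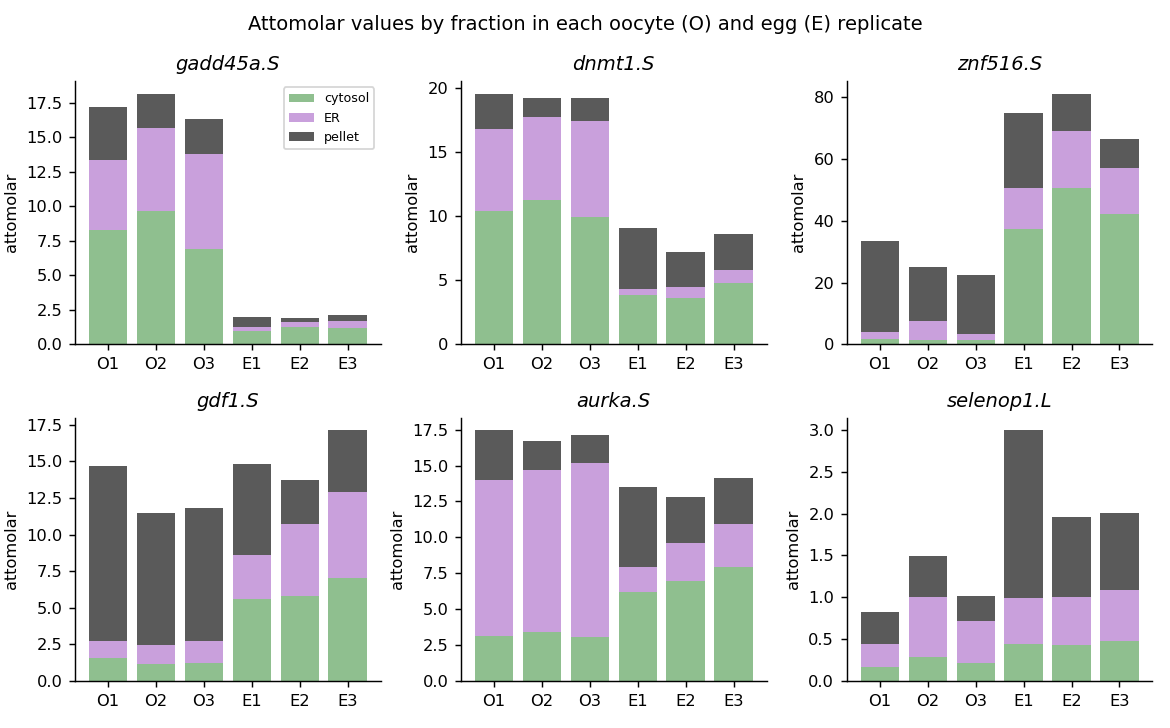
Attomolar values in the cytosol (green), ER (purple) and pellet (grey) of each oocyte (O) and egg (E) replicate for 6 transcripts, with bar height giving the total. Totals of gadd45a.S and dnmt1.S fall, that of znf516.S rises from 22.5 to 33.4 up to 66.5 to 81.2 attomolar, and aurka.S mainly changes fractions. The aurka.S total is also lower in every egg than in every oocyte.

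Some RNAs with a held total moved into the pellet, whose share rose in 1.65% and fell in 1.85% of all transcripts. The histone gene hist1h4d.L had totals of 27.4, 24.3 and 23.5 against 23.3, 20.8 and 25.6 attomolar, and its pellet share went from 13.7%, 9.12% and 10.6% to 50.9%, 36.2% and 34.2%. The Cdk partner cks2.L, the spliceosome gene bud31.S and g0s2.S had pellet shares of 18.99%, 12.86% and 8.594% in oocytes and 41.47%, 35.36% and 34.61% in eggs. Against the general direction, the cytosol share fell for the claudin gene cldn6.2.S from 45.84% to 19.62%, for lpcat4.S from 64.19% to 41.31% and for the monocarboxylate transporter slc16a1.S from 65.23% to 46.01%. All 3 code for membrane proteins, but the fall was not confined to such genes. The cytosol share of the histone gene hist1h4d.L also fell, by more than that of slc16a1.S, with every egg share below every oocyte share. On summed counts the log2 differences of the totals of these 7 transcripts were positive with edgeR, from 0.05 for lpcat4.S to 0.49 for hist1h4d.L. Of other genes of maturation, the meiotic kinase mos.L was at 19.8, 19.6 and 18.7 attomolar in oocytes and 16.7, 16.5 and 18.0 in eggs (log2 difference -0.18 ± 0.06 SE). The polyadenylation factors cpeb1.L and cpeb1.S were lower by 0.30 and 0.23 on the log2 scale, and the Cdk1 inhibitor wee1.S had a difference of 0.04 (adjusted p = 0.70). The ER chaperone model hspa5.S was at 15.7, 15.7 and 14.8 against 15.4, 16.2 and 16.2 attomolar.

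Genes of RNA processing were lower on balance. Of 86 tested splicing and nuclear RNA-binding transcripts 46 fell and 6 rose, with a median of -0.20, and of the 24 heterogeneous nuclear ribonucleoprotein (hnRNP) transcripts 16 fell and 0 rose (also 0 at an unadjusted p under 0.05). With spike-in TPM 31 of the 86 were lower and 1 higher, and on summed counts edgeR called 11 of 89 lower. The U1 protein gene snrpa.S went from 27.3, 27.3 and 25.5 to 17.2, 16.9 and 17.1 attomolar and hnrnpa2b1.S from 7.46, 7.81 and 7.18 to 5.127, 4.491 and 4.796, while srsf6.L and snrnp200.S rose by log2 differences of 0.34 and 0.52. Relative to the median of all transcripts the list's median was -0.339, and it was -0.0377 with edgeR on summed counts and between -0.521 and -0.232 under the other scalings compared. Its median pellet share rose from 14.4% to 23.6%. Histone genes had 6 of 29 lower and 0 higher by limma, with a median of -0.11, but on summed counts edgeR called 9 higher and 2 lower, with a median of 0.12. At an unadjusted p under 0.05 limma gave 0 higher and 9 lower histones. The oocyte linker histone h1foo.S went from 34.8, 38.5 and 32.0 to 23.4, 24.4 and 24.6 attomolar. Animal pole RNAs had 8 of 17 lower, such as sox3.L at a log2 difference of -0.65, and 1 higher, sox11.L at 0.20, although on summed counts its edgeR log2 difference was -0.02.

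Glycolytic genes were higher on balance. Of 37 tested glycolytic transcripts 27 rose and 2 fell, with a median of 0.39. Phosphoglycerate mutase pgam1.S went from 3.83, 2.87 and 3.34 to 5.86, 6.26 and 6.10 attomolar, gpi.L had a log2 difference of 0.57, and both homeologs of the regulatory kinase pfkfb3 fell, by 0.49 and 0.35. Its median lay 0.244 above that of all transcripts, and 0.125 (edgeR on summed counts) to 0.296 above it under the other scalings compared. It held 0.328% ± 0.017 (SD) of the attomolar in oocytes and 0.405% ± 0.0157 in eggs (exact permutation p = 0.1, two-sided). Proteasome subunits rose in 34 of 61 cases and fell in 2, psmd14.L and psmd14.S, with psmd2.L at a log2 difference of 0.64, but with spike-in TPM 3 were higher and 3 lower, and with edgeR 6 and 5. Translation factors rose in 41 of 78 cases, eif3a and eef1a1o.L among them at 0.53 and 0.50, and 5 fell, among them eif2a.S at -0.93, against 6 higher and 4 lower with spike-in TPM and 5 and 4 with edgeR. Nuclear-encoded oxidative phosphorylation genes rose in 60 of 133 cases, with uqcrc2.L and atp5f1b.L at 0.66 and 0.51, and fell in 12. With spike-in TPM 9 were higher and 12 lower, and on summed counts edgeR called 4 higher and 28 lower, with a median of -0.03.

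Ribosomal protein genes sat near the median of all transcripts. Of 121 tested cytosolic ones 116 moved with the total held, as did 66% of all transcripts, and 44 rose and 12 fell, with a median of 0.08. That direction turned when centred (10 higher and 25 lower), with spike-in TPM (1 and 15) and on summed counts, where edgeR called 0 higher and 46 lower (median -0.19). By limma rpl5.S rose by a log2 difference of 0.51, whereas rps10 fell from 17.7, 16.4 and 15.7 to 10.04, 9.514 and 9.999 attomolar. Mitochondrial ribosomal genes rose in 24 and fell in 10 of 93 cases. These shares, 25.8% and 10.8%, were near the 25.7% and 8.83% of all transcripts. When centred 11 were higher and 26 lower, with spike-in TPM 0 and 9 and with edgeR 1 and 11. ER residents rose in 36 and fell in 5 of 85, with rpn2.S and pdia3.S at 0.51 and 0.44, against 14 and 14 when centred, 1 and 4 with spike-in TPM and 7 and 7 with edgeR. Lysosomal and proton pump genes rose in 28 and fell in 8 of 58 (7 and 6 with spike-in TPM), which include naga.S and the 2 cathepsins above. RNA storage and polyadenylation genes rose in 36 and fell in 10 of 88, with the poly(A) polymerase papola.L at 0.81 and the storage protein ybx2.L at 0.67, and decay genes rose in 17 and fell in 15 of 87. Centred on the median transcript the balance of both turned, with 19 storage genes higher and 22 lower and 9 decay genes higher and 30 lower, and with spike-in TPM the counts were 4 and 10, and 5 and 16. Of the decay genes cnot1.L, the scaffold of the deadenylase complex, rose by a log2 difference of 0.73, and both upf1 homeologs, which code for a helicase of nonsense-mediated decay, fell in total, upf1.S by 1.00 and upf1.L by 0.80. The upf1.S pellet was at 0.822, 0.420 and 0.502 attomolar in oocytes and 0.856, 0.446 and 0.450 in eggs, which overlap.

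Egg coat genes, which code for the zona-type envelope proteins, rose in 8 of 9 tested cases and fell in 0 (also 0 at an unadjusted p under 0.05), and the wider oocyte-defining list in 18 of 28, with 4 lower: lhx8.L, h1foo.S, h1foo.L and zar1.S. With spike-in TPM that list had 4 higher and 6 lower. The egg coat gene zpd.L, picked after its values were seen, was at 10.7, 10.7 and 9.85 attomolar in oocytes and 13.1, 14.1 and 13.9 in eggs. Calcium signalling genes, used by the egg at fertilisation, rose in 17 and fell in 6 of 35 cases (3 and 5 with spike-in TPM), with camk2g.S and the calcium release channel itpr1.S at log2 differences of 0.79 and 0.67 and the calcium sensor stim1.L at -0.72. On summed counts the edgeR log2 difference of camk2g.S was -0.09. Maternal Wnt genes and transcription factors rose in 18 and fell in 8 of 73. These shares, 24.7% and 11%, were near the 25.7% and 8.83% of all transcripts. When centred 9 were higher and 18 lower, with spike-in TPM 1 and 6 and with edgeR 1 and 8. RNA polymerase II genes rose in 8 and fell in 11 of 61, or 13.1% and 18% against the 25.7% and 8.83% of all. When centred 2 were higher and 24 lower, with spike-in TPM 0 and 7 and with edgeR 1 and 8. The Wnt effector ctnnb1.S and the receptor fzd7.L had log2 differences of -0.53 and -0.66, and the coreceptor lrp6.S 0.44. Of the 4 tested blood, immune and liver markers 1 rose and 1 fell.

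**Figure D5:**
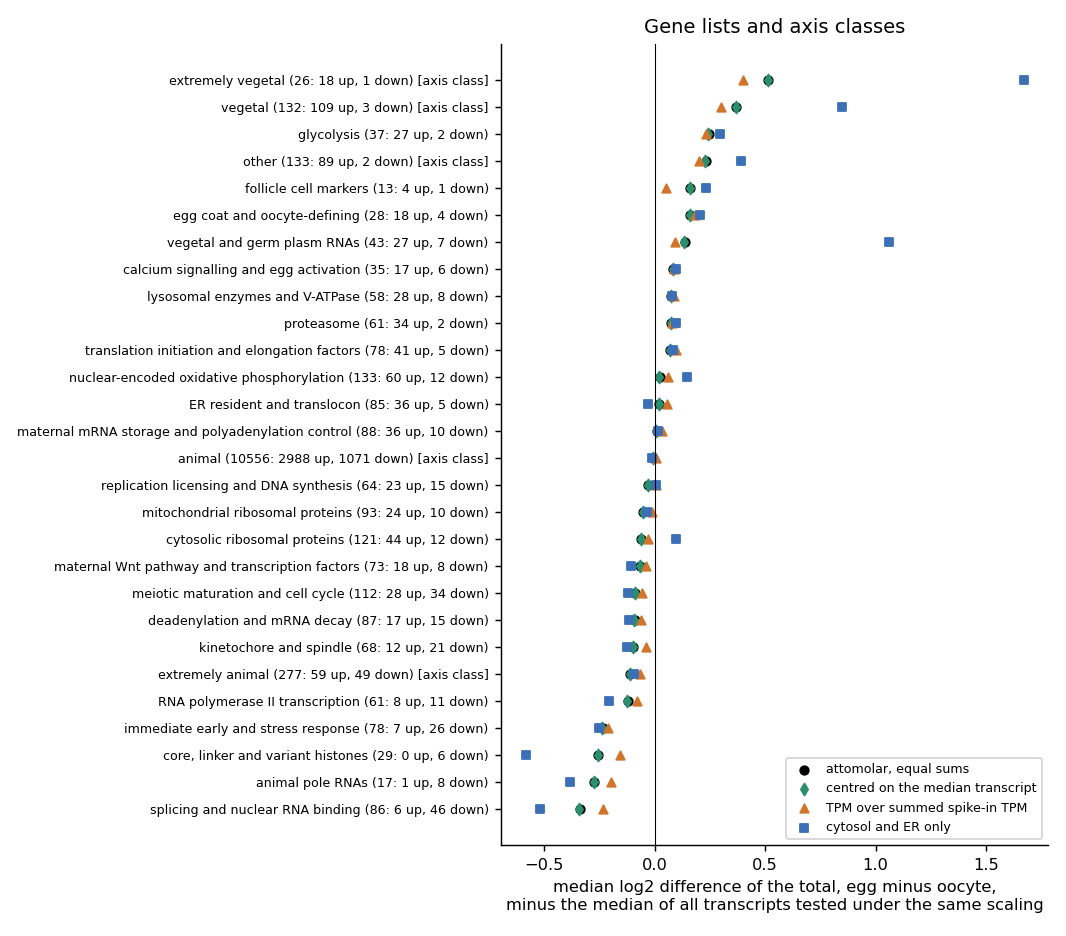
Median log2 difference of the total, egg minus oocyte, of each gene list and axis class, minus the median of all transcripts tested under the same scaling (horizontal axis), for 4 scalings, with the number tested and called beside each name. Splicing lies lowest at -0.339 with equal sums and extremely vegetal RNAs highest at 0.513, and cytosol and ER alone spread the vegetal groups furthest. The fit on summed counts, where the vegetal groups and histones change direction, is not drawn.

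Xenopus laevis carries a pair of homeologous copies, L and S, of many genes, and reads from near-identical stretches may be split between them, so differences between copies are uncertain. Both copies were tested for 3526 genes, and their log2 differences had a Pearson correlation of 0.62 and a Spearman correlation of 0.593 over the pairs, a description since shared reads tie the copies together. Both copies fell in 195 pairs, and exactly 1 copy fell in 338. Both rose in 573 pairs, and exactly 1 rose in 850. In 38 pairs the copies were called in opposite directions. Among pairs picked after their values were seen, rasl11b.L had a log2 difference of -1.71 and rasl11b.S of 0.92. The polymerase subunit gene polr2k.S went from 0.522, 0.459 and 0.483 to 0.0796, 0.123 and 0.108 attomolar (log2 difference -2.15 ± 0.20 SE), with polr2k.L at 0.03. The rnd3.S copy fell by 1.43 with rnd3.L at 0.10, and c1orf43.L fell by 1.47 with c1orf43.S at -0.07. By contrast both copies of gadd45a, dnmt1, jun, pim1 and txnip fell, and both of gadd45g rose.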

How the data were processed

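RNA-seq libraries of cytosol, ER and pellet fractions were made from 3 oocyte and 3 egg samples, 18 in all. Per the labels' protocols rRNA was depleted and libraries were stranded. The labels also name an mRNA library kit, and whether poly(A) RNA was selected is not clear from them. Whether changes in poly(A) tails affected the measured totals was not tested. The submitters' processing notes name bcl2fastq 2.20 and kallisto 0.46.2, and the transcript set and genome build are not given in the sources used here. The authors deposited estimated counts and TPM for each library, and an attomolar concentration per transcript, which per the series' design text comes from a regression of TPM on 5 spike-ins. In that table the attomolar of a sample, over its 3 fractions, add up to 1 fixed value, so a gain or loss common to all RNAs cannot be seen. A further 24 columns of per-sample values were not used.

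Attomolar values were added over the 3 fractions of a stage and replicate number. Transcripts with a total of at least 0.1 attomolar in at least 3 of 6 totals were tested with limma 3.58.1 (R 4.3.3, trend and eBayes) on log2(total + 0.01), which understates changes of low transcripts, with Benjamini-Hochberg adjustment over all of them and a threshold of 0.05. Fraction shares were tested in percent with limma, and differences within fractions with limma on log2 attomolar over 18 libraries. Sums of lists and classes were tested with an exact two-sided permutation test. Alternatives were edgeR 4.0.16 and DESeq2 1.42.0 on estimated counts rounded and summed over fractions, other pseudocounts, filters and scalings, a replicate block, and each replicate left out.

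Named transcripts were the 12 highest and 12 lowest called totals with a symbol, a mean of at least 1 attomolar and no overlap of stages, the 4 largest rises and falls of each fraction share with a held total, from each of 24 lists the 2 best-ranked members by adjusted p among those higher and among those lower, and a panel of known maternal genes. Others are said to be chosen after their values were seen. The members and lists were chosen with earlier results of these data known. On simulated totals of 19278 transcripts limma recovered 65.7%, 88.1% and 98.5% of those changed 1.5-fold, 2-fold and 4-fold. Among those left unchanged there were 7 false calls. The simulated noise was independent between transcripts and held no shift shared by a whole replicate, such as that of egg replicate 1. The false calls in the real totals can therefore not be read from it. For called homeologs and repeated models of 1 gene, the split of shared reads is uncertain. The median SE of a log2 difference was 0.0965. Estimated counts limit precision through counting error only in part, since reads without molecular identifiers are not independent molecules.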

Additional observations from a re-analysis of the deposited data

Results flagged for a closer look

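Egg minus oocyte log2 differences of single transcripts had opposite signs in a pair of fractions for 53 of the named transcripts, where both fractions' changes and the difference between them passed limma's test over 18 libraries with Benjamini-Hochberg adjustment. Each is given for the pair that differed most among those. Transcripts with as large a gap, such as znf516.S and dnmt1.S, are not among them where 1 of the fractions was not called on its own. For pellet minus cytosol the lowest were ston1.S at -5.73, rtn3.S at -5.49, naga.S at -5.49, cnppd1.L at -5.24, pcsk6.L at -5.15, velo1.L at -4.32 and otx1.L at -4.27. Next came wnt11b.L at -4.25, terc.L at -4.22, adipor2.S at -3.88, dazl.L at -3.85, tob2.L at -3.70, gdf1.S (gene48962) at -3.59 and gdf1.S (gene40286) at -3.52. Smaller ones were gdf1.S (gene47490) at -3.49, camk2g.S at -3.46, gdf1.S (gene50666) at -3.43, papola.L at -3.08, trim36.S at -2.98, smad7.L at -2.81 and chek1.S at -2.62. The remaining ones were itpr1.S at -2.52 and gapdh.S at -2.04. The opposite order, with the pellet difference above the cytosol difference, was found for atp2b1.L at 3.21, hmmr.L at 3.17, eif2ak3.S at 3.09 and slc16a1.S at 2.25. For ER minus cytosol the values were exd2.L at -4.26, polr2a.L at -3.91, map4.S at -3.69, mettl9.L at -3.40, pou2f1.S at -3.37, aurka.S at -3.36 and esrp1.S at -3.22. The smaller values of this pair were mrpl35.L at -2.25, vegt.L at -1.95, cenpi.L at -1.90, rpn2.S at -1.90, sox11.L at -1.62 and hspa5 at -1.52. For pellet minus ER the values were fbxo43.S at 2.91, ssx2ip.L at 2.72, snrpa.S at 2.71, g0s2.S at 2.66, incenp.S at 2.66, bud31.S at 2.65 and ccdc50.S at 2.41. The other values of this pair were sox3.L at 2.39, pfkfb3.L at 2.33, ccdc50.L (gene43416) at 2.28, ctnnb1.S at 2.24, cks2.L at 2.21 and btg4.S at 2.14. Pellet values of egg replicate 1 were above those of the other eggs in sum, and its part in these differences was not tested. Groups of 3 were not tested for single samples that stand apart.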

How the results depend on the processing

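The direction of the all-transcript result depends on the scaling and its size on single replicates. The 4957 higher totals became 1926 without a filter, 3120 when centred on the median transcript, 624 with spike-in TPM, 2446 with cytosol and ER only, 3137 with a robust fit without trend, 839 with edgeR and 1249 with DESeq2, and between 2769 and 8095 when 1 replicate was left out. The 1702 lower totals became 3411 when centred and 2684 without the exponent of the regression. The 265 transcripts lower in every fraction became 146 with a minimum of 1 attomolar, 472 when centred, 557 with spike-in TPM and 1310 with cytosol and ER only, where only 2 fractions have to fall, and 173 to 332 with 1 replicate left out. The 132 higher in every fraction became 26, 66 and 341 with a minimum of 1 attomolar, centring, and cytosol and ER only. The 12727 that moved with the total held became 4977 with the narrower limit tried for a held total and 3774 with a share change of 20 points.

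Same-numbered oocytes and eggs deviated from their stage means with correlations of -0.154, -0.107 and -0.021, and they were not paired in the main fit. The labels do not say whether a number marks a shared frog or culture. These correlations cannot settle it, because shifts of whole replicates also enter them. With the replicate number as a block 2675 totals were higher and 1276 lower.

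Of 2835 alternative values of the 150 named transcripts 2493 kept the call, or the lack of one. Another 245 lost the call and 30 gained it, with the sign kept, and 67 changed sign with a call in either fit. Sign changes without a call in either fit are counted among the 2493. Of the 67, 64 were on summed counts, where each library weighs by its depth. On summed counts, where attomolar totals were higher, the log2 differences with edgeR and DESeq2 were -0.65 and -0.64 for wnt11b.L, -0.35 and -0.34 for gdf1.S (gene50666), -0.34 and -0.33 for trim36.L, -0.31 and -0.31 for gdf1.S (gene40286), -0.31 and -0.30 for trim36.S, -0.31 and -0.30 for vegt.S, -0.30 and -0.30 for gdf1.S (gene47490) and -0.29 and -0.29 for gdf1.S (gene48962). They were likewise -0.18 and -0.17 for pcsk6.L, -0.13 and -0.12 for gapdh.S, -0.13 and -0.12 for tob2.L, -0.10 and -0.097 for esrp1.S, -0.094 and -0.090 for camk2g.S, -0.085 and -0.081 for rpl21.L, -0.054 and -0.050 for ston1.S and -0.044 and -0.040 for supt5h.S. Closer to 0 they were -0.036 and -0.031 for cnppd1.L, -0.024 and -0.020 for smad7.L, -0.015 and -0.011 for sox11.L, -0.013 and -0.0086 for mrpl35.L and -0.0076 and -0.0033 for chek1.S. Where attomolar totals were lower, they were 0.49 and 0.49 for hist1h4d.L, 0.39 and 0.40 for ccdc50.L (gene47265), 0.34 and 0.34 for g0s2.S, 0.25 and 0.26 for cks2.L, 0.19 and 0.20 for btg4.L and 0.17 and 0.18 for cldn6.2.S. The other such values were 0.16 and 0.17 for slc16a1.S, 0.073 and 0.077 for ccdc50.L (gene43416), 0.070 and 0.074 for bud31.S, 0.045 and 0.049 for lpcat4.S and 0.021 and 0.025 for cyp17a1.L. With cytosol and ER only, nanos1.L, dazl.L and terc.L had values of 1.46, 1.74 and 2.82, since the pellet that held them in oocytes was left out. Of 261 values of the percent held by a list or class, 24 moved by more than the replicate SD.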

Other observations

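Abundant RNAs had a lower median difference than rare ones, and larger shares of both higher and lower totals. Of the 3854 transcripts with a mean total above 4.25 attomolar, 27.7% were higher and 19.4% lower, with a median log2 difference of 0.06. Of those below 0.42 attomolar, 2.98% were lower and the median was 0.20. The share called higher was also smaller among these rare transcripts than among the abundant ones. Their few lower calls therefore go with fewer calls in both directions. By length, the median was 0.09 for transcripts under 1967 bases and 0.19 for those over 6873 bases, where 32.6% were higher and 5.81% lower. These values are descriptions of the same 6 totals, and what lies behind them was not tested.

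Among homeolog pairs chosen after their values were seen, the copies of the transketolase gene tkt had log2 differences of 0.57 (L) and -0.53 (S), those of ctr9, a subunit of a polymerase-associated complex, -0.53 and 0.54, and those of the splicing factor gene wbp11 0.26 and -0.90. Each pair was called in opposite directions. Reads shared by the copies may be split between them, and this was not tested.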
